A study of Mus musculus with 30 samples.

Results

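Mouse embryonic stem (ES) cells that had been in culture for 2 days and had lost surface E-cadherin were set against neuroectodermal cells sorted from the same culture on days 3, 4 and 5. The comparison was defined by the sample labels: 1 sample labelled day 2 E-cad (-) against the 3 samples labelled Sox1 (+), which together are 4 of the 10 samples and 12 of the 30 arrays of the series. For each gene the question was whether the day 2 value had already reached the range spanned by the 3 Sox1 (+) values, lagged behind it on the ES side, or lay beyond it. No measured value was used to choose the samples, although the comparison was chosen with earlier results of these data known.

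All cells came from 1 line of 129-derived mouse ES cells that carries green fluorescent protein as a reporter at Sox1, a transcription factor gene of early neuroectoderm. The cells were aggregated in serum-free suspension culture (SFEB), in which ES cells turn into neural tissue with few added growth factors, and were then sorted by flow cytometry. The ES group held 3 samples sorted as E-cadherin-positive before differentiation. The other samples were 1 unsorted sample of day 1, 1 E-cad (-) and 1 E-cad (+) sample of day 2, 1 Sox1 (-) sample of day 3, and 1 Sox1 (+) sample each of days 3, 4 and 5. No treatment other than the culture and the sort was recorded, and all groups shared the reporter allele. Every sample was hybridised to the U74Av2, U74Bv2 and U74Cv2 chips, whose probe sets carry different genes. The labels do not say that the 3 ES samples came from separate cultures, so the spread behind each p-value may be technical rather than that of independent cultures.

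In this culture ES cells leave the naive state, in which Pou5f1, Nanog, Esrrb and their partners keep them pluripotent, and pass through an epiblast-like stage to neuroectoderm. Epithelial ES cells are held together by E-cadherin (Cdh1), and neural plate cells exchange it for N-cadherin (Cdh2). Neural progenitors then take on positional identity through retinoic acid, Wnt, fibroblast growth factor and Hedgehog signals, while Notch signalling keeps part of them from becoming neurons.

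The day 2 E-cad (-) sample stood most of the way from ES cells to Sox1 (+) cells. It held Crabp1, Nnat, Fabp7 and Hoxa3 at Sox1 (+) levels, while Nr2f1, Sfrp1, Wls and Nrarp were still below the Sox1 (+) range. Esrrb, Dppa5a and Tdgf1 were still above that range, although Esrrb had fallen far below its ES level. Of 29 genes of neurons none lay below the Sox1 (+) range, beside 24.9% of all genes. The 4 gained ones had all reached that range, beside 31.9% of all gained genes. The 1 lost member, Nefh, lagged above the range on the ES side. A small set, among them Hoxb5 and Sez6, was higher at day 2 than in any other sample.

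Values are the deposited array signals (intensities), compared on the scale log2(intensity + 16), which understates differences of dim genes. After a filter on dim probe sets, 25690 probe sets were tested, and 12941 genes were each described by their brightest probe set. Signals were of similar scale across arrays, with array medians spanning 177 to 203 on U74Av2, 231 to 278 on U74Bv2 and 194 to 220 on U74Cv2. The ratio of the 3′ to the 5′ actin control probe set, a measure of RNA integrity, was 1.23 to 1.33 in the day 2 E-cad (-) sample and 1.33 to 1.44 in the day 5 Sox1 (+) sample, against 0.939 to 1.25 in all others except the third ES sample, which had 1.64 to 1.85. The part of these ratios in the results was not tested.

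The genes that define the sorts were examined first. Sox1 had an intensity of 251 in the day 2 E-cad (-) sample, against 308, 309.7 and 252 in the Sox1 (+) samples of days 3, 4 and 5, 173, 156 and 138 in the 3 ES samples, and 253 in the day 2 E-cad (+) sample. The day 2 sample was thus as high as the day 5 Sox1 (+) sample, but so was the E-cad (+) fraction. The day 3 Sox1 (-) sample was close to them, at 241. This signal therefore did little to separate Sox1 (+) cells from the other sorts of days 2 and 3. Cdh1 message, which encodes the surface protein used for the sort, was 565 in the E-cad (-) and 572 in the E-cad (+) fraction, so the 2 fractions did not differ in it, and the Sox1 (+) samples had 418, 454 and 404. The fractions did differ in Cdh2, with 1601 against 347, and in Pou5f1, with 4024 against 11905. In bulk RNA such as this, fewer cells of a type and less RNA per cell cannot be told apart.

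With 1 sample against 3, no probe set passed limma at an adjusted p of 0.05. The smallest adjusted p was 0.16, and 1797 of 25690 probe sets (6.99%) had an unadjusted p under 0.05, 821 lower (3.2%) and 976 higher (3.8%) at day 2. The residual spread came from the ES and the Sox1 (+) samples, and the latter includes the change over days. The median log2 difference over genes was 0.04 and its median SE 0.34. What follows therefore describes positions against the measured range, with the log2 difference from the Sox1 (+) mean and its limma SE for the genes the results turn on.

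Of the 12941 genes, 5877 (45.4%) lay inside the Sox1 (+) range at day 2, 3226 (24.9%) below it and 3838 (29.7%) above it. Most of the excursions were small. Only 135 genes (1.04%) lay below the range by 1 or more on the log2 scale, and 148 (1.14%) lay above it by as much. A range of 2 Sox1 (+) samples is narrower than one of 3: without the day 3 sample 261 genes lay below and 301 above by 1 or more, with 3648 inside, without day 4 the count above was 273, and without day 5 it was 236, with 3839 inside. The 283 genes (2.19%) were unequally spread over the chips, with 18 and 48 genes below and above on U74Av2, 45 and 43 on U74Bv2, and 72 and 57 on U74Cv2. At the edges of the threshold, Rprm and Eml1 were just counted below (-1.006 and -1.001) and Eif4e1b and Fam120aos just missed (-0.995 and -0.994), while Dnmt3l and Tfcp2l1 were just counted above (1.017 and 1.018) and Iqcd and Zfp979 just missed (0.998 and 0.998).

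**Figure D1:**
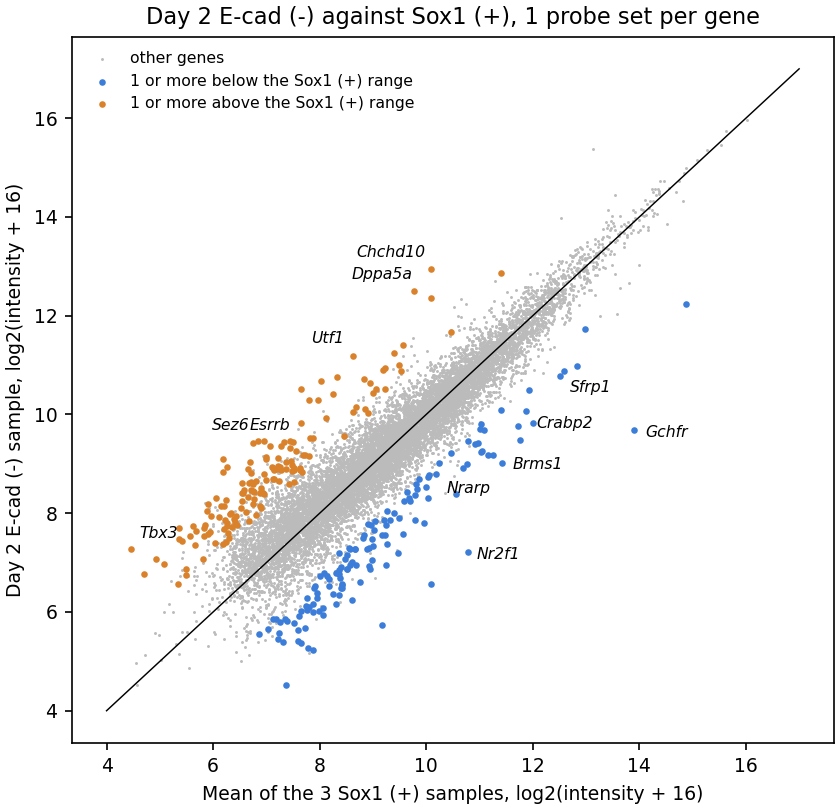
Intensity of the day 2 E-cad (-) sample (vertical axis) against the mean of the 3 Sox1 (+) samples (horizontal axis), both as log2(intensity + 16), for 12941 genes with 1 probe set each. The line marks equal values, blue points are the 135 genes lying 1 or more below the Sox1 (+) range and orange points the 148 lying 1 or more above it, and most genes sit close to the line.

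To relate these positions to the path of differentiation, genes were first sorted by the change from ES to Sox1 (+) cells. In that comparison limma called 1626 genes (12.6%) at an adjusted p under 0.05, of which 828 (6.4%) were gained and 798 (6.17%) were lost in Sox1 (+) cells. Among the gained genes, the day 2 E-cad (-) sample had reached the range for 217 (26.2%), lay beyond it for 47 (5.68%), lay between ES and Sox1 (+) values for 525 (63.4%), and was still inside the ES range or on its far side for 39 (4.71%). Among the lost genes the counts were 224 (28.1%), 48 (6.02%), 472 (59.1%) and 54 (6.77%). Those that had reached or passed the range thus came to 31.9% of gained and 34.1% of lost genes. These shares were 15.9% and 16.6% without the day 3 Sox1 (+) sample, 20.9% and 17.4% without day 4, and 24.2% and 18.5% without day 5, and the share of lost genes was 21.9% without the second ES sample. Because the Sox1 (+) samples also chose these genes, any further sample would tend to fall short of them.

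The distance covered was expressed as a percentage of the way from the ES mean (0) to the Sox1 (+) mean (100) on the log2 scale. Its median at day 2 E-cad (-) was 69.7% over gained genes (quartiles 52.1% and 86.7%) and 69.5% over lost genes (quartiles 49.0% and 89.0%). The E-cad (+) fraction of the same day had medians of 14.3% and 24.4%, the day 1 sample 13.7% and 13.0%, and the day 3 Sox1 (-) sample 18.4% and 20.9%. These samples are measured against the same ES and Sox1 (+) samples, so the medians are given side by side without a test. More than 50% of the way had been covered by 646 of the 828 gained genes (78.0%) and 585 of the 798 lost genes (73.3%) in the E-cad (-) sample, against 125 (15.1%) and 183 (22.9%) in the E-cad (+) sample.

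**Figure D2:**
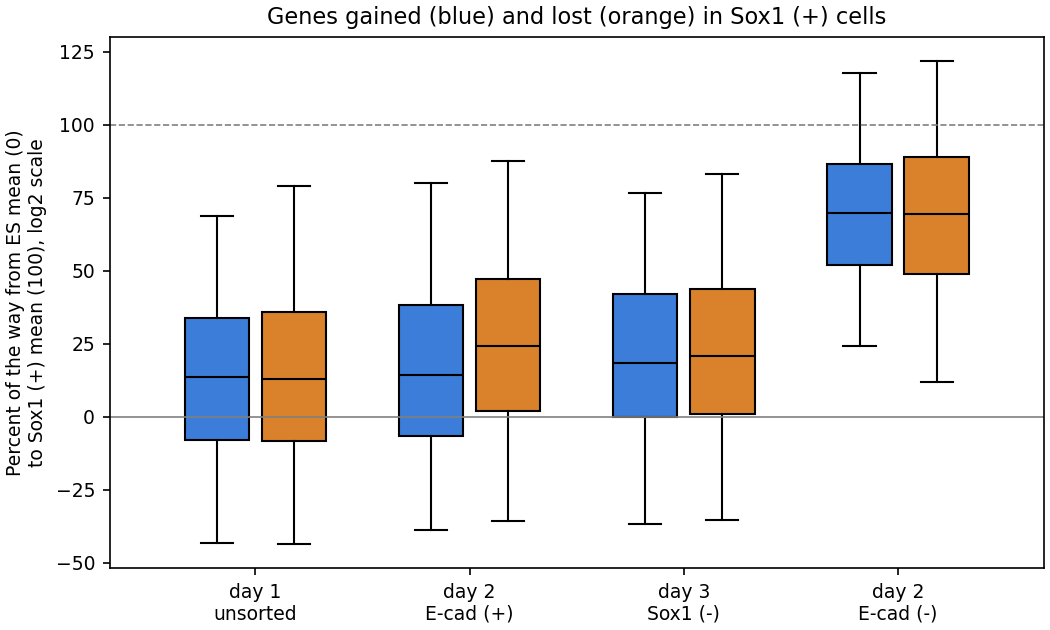
Percent of the way from the ES mean (0) to the Sox1 (+) mean (100) for 828 gained (blue) and 798 lost (orange) genes in the 4 samples outside those groups. Boxes span the quartiles with the median as a line and whiskers reach from the 5th to the 95th percentile of genes; the medians of the day 2 E-cad (-) sample are 69.7% and 69.5%, and the medians of the other 3 samples lie between 13.0% and 24.4%.

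Against ES cells alone, where the day 2 E-cad (-) sample can be tested in the same limma fit, 55 genes were called at an adjusted p under 0.05 (0.425% of those tested), 19 higher (0.147%) and 36 lower (0.278%) than in ES cells. Nnat, a paternally expressed imprinted gene active in the developing nervous system, rose by 5.16 ± 0.37 (SE) on the log2 scale (adjusted p = 0.0039), from 146, 178 and 122 to 5826. Crabp1, which binds retinoic acid in the cytoplasm, rose by 4.33 ± 0.43 (SE) (adjusted p = 0.0118), and Irx3, a homeobox gene of the neural plate, by 2.87 ± 0.26 (SE) (adjusted p = 0.00876). Sox3, Cdh2, Crabp2, Meis2 and the surface glycoprotein gene Cd24a were also called higher. Of the genes called lower, Tcl1, Esrrb, Klf5, Nr0b1, Tbx3 and Mybl2 belong to the naive pluripotency list, and Grhl3 and Cldn4 are genes of epithelia. Of the 19 genes called higher, 4 were inside the Sox1 (+) range, 3 beyond it and 10 between it and the ES range, and of the 36 called lower the numbers were 4, 5 and 25.

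The genes that had arrived are described first. Among the gained genes with the largest change that were in or past the range, Crabp1 had 6659 at day 2 E-cad (-) and 11405, 9898 and 5075 in the Sox1 (+) samples, against 283 to 342 in ES cells and 136 in the E-cad (+) fraction. Crabp1 was therefore inside the Sox1 (+) range, above its day 5 value, and far above every other sample that was not Sox1 (+). Nnat (5826 at day 2, against 3665, 5388 and 2873) exceeded all 3 Sox1 (+) samples by a small margin. Sox3, a partner of Sox1 in neural progenitors, had 3771 against 4838, 3621 and 4794, with 611 to 764 in ES cells, on its brightest probe set. The next brightest had 2937 against 5616, 5891 and 5986, below its range by 0.93 on the log2 scale. Another had 425 against 1086, 596 and 1218, also below, and the dimmest lay inside its range, so the place of Sox3 differed between its 4 probe sets. Fabp7, the brain fatty acid binding protein of radial glia, had 1849 against 667, 1576 and 2352, above its day 3 and day 4 values and below that of day 5. Ccnd2, the D-type cyclin of neural progenitors, was at 941 with 735, 1068 and 1687 in the Sox1 (+) samples, and Ptprn2 and Podxl2 also lay inside their ranges. Hoxa3, a homeobox gene of the hindbrain, had 845 against 795, 884 and 667, although the 3 ES samples ranged from 16 to 259. For Tmtc2, inside its range at 519.9 against 509.6, 1209 and 4166, the Sox1 (+) values are higher on each later day and the day 2 value sits at its low end.

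Lost genes that had arrived included Eprn and Serpinb9b. Serpinb9b, a serine protease inhibitor gene, had 13.2 at day 2 E-cad (-), against 38.5, 36.1 and 20.2 in Sox1 (+) and 417 to 605 in ES cells, so it was lower than in any other sample. Eprn had 79.7 against 44.5, 60.1 and 158, and the E-cad (+) fraction had 423. Lrrc34 was at 127 against 120.5, 199.9 and 88.9, and the interferon-induced membrane protein gene Ifitm3 was at 867 against 806, 839 and 887, from 3314 to 4710.2 in ES cells. Myom2, Ahnak, Syce1, S100a6 and Sfn also lay in their ranges. Of the pluripotency genes, Nanog was inside its range, at 2552 against 2920.2, 3029 and 398, close to the day 3 and day 4 values and far above that of day 5.

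The neural progenitor genes formed the largest list. Of 47 tested, 15 were inside the Sox1 (+) range, 24 below and 8 above, and 9 lay below by 1 or more and none above by as much. Over all genes 45.4% were inside, 24.9% below and 29.7% above, with 1.04% below and 1.14% above by 1 or more. The median difference of the list was -0.32, against 0.04 over all genes. A total of 31 were gained genes, beside 6.4% of all genes. Of these, 9 had reached or passed the range, 21 were between and 1 was still in the ES range. Their median was 67.7% of the way. Over all gained genes 31.9% had reached or passed the range, and the median was 69.7%. At an unadjusted p under 0.05, which 2.87% of all genes met with a lower day 2 value, 12 of the 47 were lower and none higher.

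Nr2f1, which encodes the orphan nuclear receptor COUP-TFI, lagged most clearly: 132 at day 2 E-cad (-) against 852, 1539.9 and 4099 on days 3, 4 and 5, with 8.39, 20.7 and 39.2 in the ES samples. The day 2 value was above all ES samples and below all Sox1 (+) samples, by -2.56 on the log2 scale from the nearest of them, and the difference from their mean was -3.59 ± 0.76 (SE). Its relative Nr2f2 (COUP-TFII) was at 207 against 637, 1153 and 1289, inside the ES range of 40.7 to 252, and its other probe sets lay on the same side of the range by less. Crabp2, the second cytoplasmic retinoic acid binding protein, was at 1058 against 3404, 4749 and 3270.4, a difference of -1.81 ± 0.29 (SE), while its paralog Crabp1 had arrived. A second probe set of Crabp2 lay inside its range, so this lag rests on 1 of 2 probe sets. Ptprz1, a receptor phosphatase of neural progenitors, had 130.4 against 544, 608 and 1008, again on 1 of 2 probe sets, and Dach1 had 1422 against 3053, 3633 and 5228.

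Other progenitor genes were part of the way. Cdh2 was at 1601 against 2840.2, 3179.5 and 2190.0 (78% of the way), Msi1, an RNA-binding protein of neural stem cells, at 2634 against 5975, 4979.6 and 5309 (56.2%), and Hmga2, a chromatin protein of young progenitors, at 822 against 2069.6, 2657 and 1634 (56.2%). Sox11 was at 14736 against 15249.7, 27336 and 31148, just below its day 3 value. Pax6, a regulator of neural progenitor identity, was at 391 against 347, 593 and 696, and the intermediate filament gene Nes at 1341 against 1599, 1926 and 2583. The POU factor gene Pou3f3 was higher on each later day (625, 1494 and 3840.4) and stood at 520.0 at day 2. The secreted growth factor gene Mdk, the RNA-binding protein gene Msi2 and the adhesion gene Ncam1 were slightly beyond their ranges, each by less than 0.1 on the log2 scale. Hes5, the best-known Notch target of progenitors, was placed differently by its 2 probe sets. The brighter had 1261 at day 2, 1189.5, 1214 and 1266 in Sox1 (+) cells and 1093 to 1559.8 in ES cells. The dimmer had 264 at day 2 and 437, 636 and 977 in Sox1 (+) cells, higher on each later day, and lay below its range by 0.69 on the log2 scale.

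**Figure D3:**
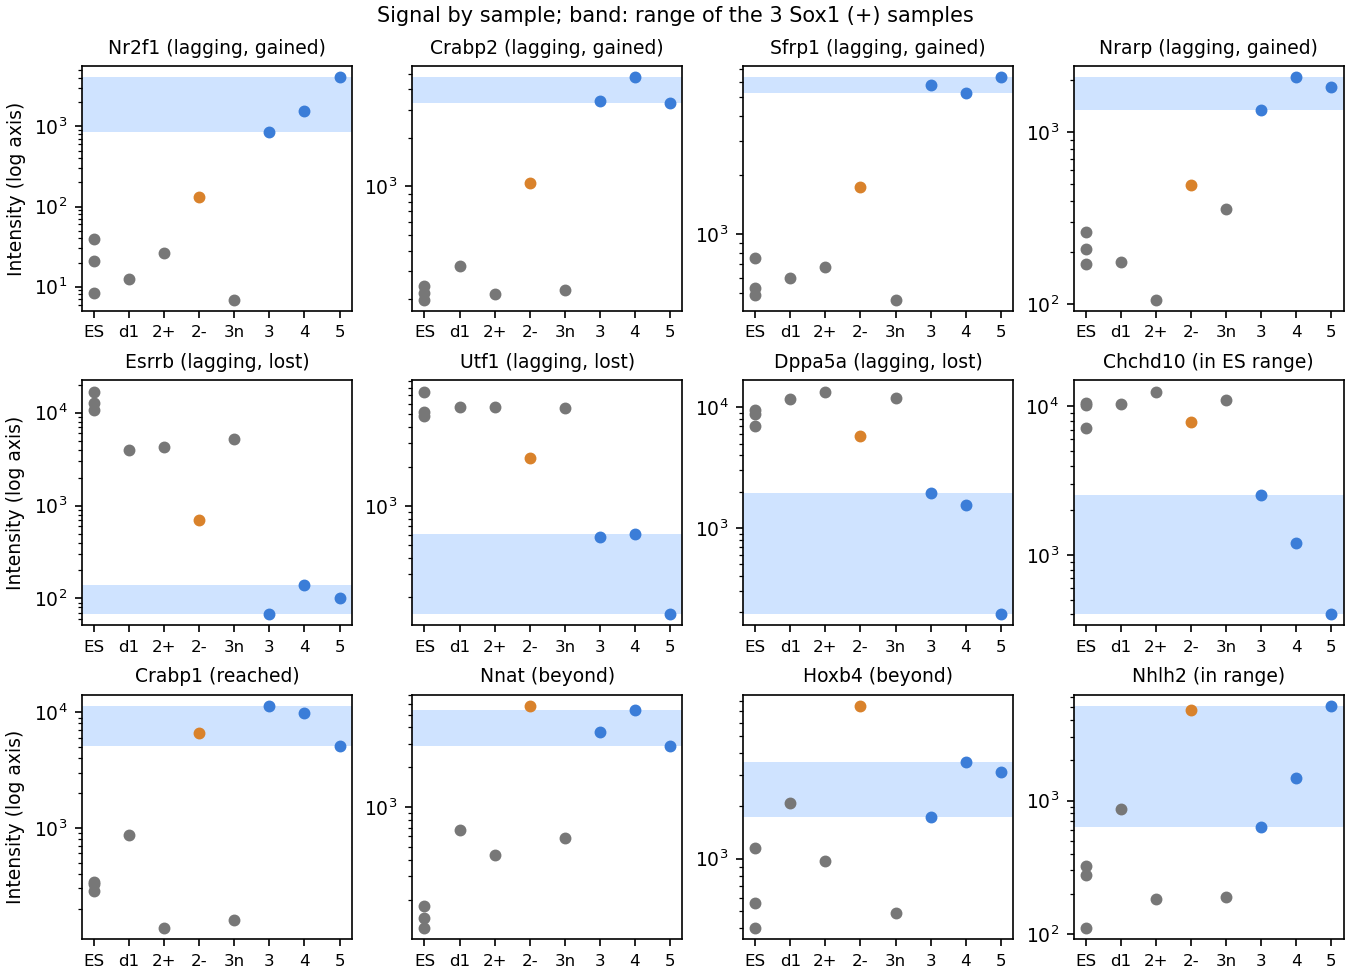
Intensities (log axes, each panel with its own scale) of 12 named genes in the 3 ES samples (ES), day 1 (d1), day 2 E-cad (+) (2+), day 2 E-cad (-) (2-, orange), day 3 Sox1 (-) (3n) and the Sox1 (+) samples of days 3, 4 and 5 (3, 4 and 5, blue). The band is the Sox1 (+) range; the orange point lies below it for Nr2f1, Crabp2, Sfrp1 and Nrarp, above it for Esrrb, Utf1, Dppa5a and Chchd10, inside it for Crabp1 and Nhlh2, and past it for Nnat and Hoxb4.

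The naive pluripotency genes lay on the other side. None of the 33 tested lay below the Sox1 (+) range, 10 lay inside and 23 above, 12 of them by 1 or more. Over all genes 24.9% lay below, 45.4% inside and 29.7% above, with 1.14% above by 1 or more. The median difference was 0.96 for the list against 0.04 over all genes. At an unadjusted p under 0.05, which 3.99% of all genes met with a higher day 2 value, 15 of the 33 were higher. A total of 24 were lost genes, of which 4 had reached the range and 20 were between it and the ES values. All 24 were therefore outside the ES range, and their median was 64% of the way. Over all lost genes 34.1% had reached or passed the range and 6.77% had not left the ES range. The median over all lost genes was 69.5%.

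Esrrb, an orphan nuclear receptor that supports the naive state, had 12861, 10661 and 16886 in the ES samples, 695 at day 2 E-cad (-) and 68.2, 139.9 and 100.3 in the Sox1 (+) samples, with 4243 in the E-cad (+) fraction. It had covered 61.6% of the way and yet stood 2.63 ± 0.47 (SE) above the Sox1 (+) mean on the log2 scale, and a second probe set lay above its range by 0.74. Tbx3, a T-box repressor of differentiation, was at 139.8 against 3.25, 9.88 and 5.68, with 1105 to 1694 in ES cells, but its other probe set exceeded its range by only 0.14. Utf1, a chromatin-associated factor of pluripotent cells, was at 2320.5 against 579, 608 and 149, and its 2 other probe sets did not lie above their ranges. Dppa5a (5767 against 1966, 1566 and 195), Dppa2 (1616 against 557, 273 and 90.5) and Dppa4 (1711 against 673, 475 and 81.4), all genes of pluripotent cells and early germ cells, had covered 16.6%, 36.4% and 33.4% of the way. All 3 were lower on each later day.

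Zfp42 (Rex1), whose promoter carries a known octamer element, was at 275 against 42.3, 123 and 10.99 and 3049 to 4338 in ES cells. Pou5f1 itself, the octamer-binding factor, was at 4024 against 3139, 2203 and 575, 41.2% of the way, and lay above its range by 0.36 with a difference of 1.33 ± 0.77 (SE). Klf2 (171 against 38.9, 23.5 and 32.6) and Fbxo15 (471 against 46.1, 142 and 30.8) were still raised, whereas Klf4 (533 against 532, 315 and 343), Mybl2, Zfp57, Socs3, Tet2 and Lifr were at or close to their Sox1 (+) ranges. Tdgf1 (Cripto), the coreceptor of Nodal, had the smallest adjusted p of the named genes for the difference from Sox1 (+) cells (0.16), at 269 against 62.1, 51.0 and 52.2 and 451 to 567 in ES cells, a difference of 2.00 ± 0.25 (SE). The de novo methyltransferase cofactor gene Dnmt3l was at 3242 against 1594, 1296 and 1324, and Tet1, which oxidises methylcytosine, at 1609 against 542, 1078 and 521.

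Genes that had not left the ES range toward the Sox1 (+) values formed a smaller set. Chchd10, a mitochondrial protein gene, had 7870.4 at day 2 E-cad (-), 7150.2, 10478 and 10164 in the ES samples and 2526, 1199 and 403 in the Sox1 (+) samples. Bmerb1 had 1444 against 451, 244 and 51.1, and Spry4, a feedback inhibitor of fibroblast growth factor signalling, 1029 against 465, 489.9 and 433. Atoh1, a basic helix-loop-helix gene of neuronal and sensory lineages, had 441 against 31.0, 132 and 39.7, on the far side of its ES values of 207, 374 and 255 and higher than in any other sample. Tcstv1, a gene of rare ES cells that resemble the early cleavage embryo, was at 459 against 93.5, 95.1 and 68.7, and the meiotic gene Sycp3 at 461 against 167, 157 and 125. In the list of germ cell and cleavage-stage genes, 9 of 10 lay above the Sox1 (+) range, 5 by 1 or more, with a median difference of 1.34. Over all genes 29.7% lay above the range, 1.14% by 1 or more, and the median difference was 0.04. The highest ES values of the 10 listed genes all exceeded the day 2 value. Of the gained genes, those that had not left the ES range with the largest gain were the Wnt inhibitor gene Frzb (37.5 against 334, 764 and 697), Itprip, the phosphatase gene Dusp23, Nr2f2, the chemokine receptor gene Cxcr4 (51.3 against 238, 221 and 306), Fgf15, Cacng4 and Lfng.

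Genes of neurons lay inside or above the Sox1 (+) range. In this list of 29 genes, 20 were inside the Sox1 (+) range, none below and 9 above, against 24.9% of all genes below, and the median difference was 0.43. The 4 gained members, Elavl4, Map2, Nefm and Rtn1, had all reached the range, at a median of 117% of the way. Over all gained genes 31.9% had reached or passed the range, and the median was 69.7%. The day 2 sample exceeded the day 3 Sox1 (+) sample alone for 25 of the 29 genes, against 52.8% of all genes, and 12 of the 29 were nearest to the day 5 value, against 28.7% of all genes.

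Nhlh2, a basic helix-loop-helix factor of newly born neurons, had 4781 at day 2 E-cad (-) against 629, 1483 and 5139.8 in Sox1 (+) cells, with 111 to 325 in ES cells and 182 in the E-cad (+) fraction. The day 2 value was close to that of day 5 and above those of days 3 and 4. Nhlh1 had 3328 against 575, 1661 and 2870.2, although 1 ES sample also had 2114. Elavl4, a neuronal RNA-binding protein, was at 679.7 against 415, 437 and 1769, the microtubule protein gene Map2 at 792 against 346, 430.0 and 1576, and the neurofilament gene Nefm at 1111 against 803, 399.6 and 1564. Each of these 3 lay between the day 3 and day 5 values. Dcx, a marker of migrating neurons, was at 357 against 111, 137 and 552, and the proneural genes Neurod4 (216 against 41.5, 109 and 556) and Neurog1 (83.7 against 43.1, 239 and 347) followed the same order. Neurod1 lay above its range at 323 against 101, 70.1 and 148, by less than 1 with the larger pseudocount of 64. Nefh, the heavy neurofilament, was also above (456 against 217, 177 and 119.8) but on the ES side, since ES cells had 541 to 976.

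The positional genes were mixed. Of 24 genes of the midbrain, hindbrain and caudal neural tube, 6 were inside the range, 7 below and 11 above, with a median difference of 0.18. The shares over all genes were 45.4%, 24.9% and 29.7%. Hoxb1, Hoxb2 and Egr2, genes of hindbrain segments, were at or near their Sox1 (+) levels, Hoxb2 with 4382 against 4604, 10435 and 5602. Hoxa2, of the same kind, was below all 3 Sox1 (+) values, at 1409 against 2115, 1825 and 2632. The more posterior Hoxb4 had 7490.4 at day 2 E-cad (-), above the Sox1 (+) values of 1734, 3561 and 3116 and the 402 to 1146 of ES cells, and was higher there than in any other sample. Its 2 other probe sets did not exceed their ranges, so the excess rests on 1 probe set of a type that can detect related transcripts. Hoxb5 was at 644 against 167, 73.1 and 133, higher than in the other 9 samples (228 in the E-cad (+) fraction), a difference of 2.30 ± 0.64 (SE). Hoxa5 (283 against 160.0, 68.9 and 47.8), Hoxb3 and Hoxb6 also lay above their ranges, by less than 1. The Iroquois genes Irx1 (1215 against 2247, 3238 and 3780.0) and Irx2 lagged. Of 9 genes of the anterior neural plate, 4 were inside, 3 below and 2 above, none by 1 or more.

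The Wnt pathway held several of the lagging genes. Over all genes 45.4% lay inside the range, 24.9% below and 29.7% above. Of 29 genes tested, 10 were inside, 13 below and 6 above, 4 lay below by 1 or more and none above by as much, and the median difference was -0.18. All 4 were gained genes: the secreted frizzled-related proteins Sfrp1 and Sfrp2, which bind Wnt ligands, the ligand Wnt7a and the receptor Fzd7. Sfrp1 had 1747 at day 2 against 5814, 5291 and 6327 (47.6% of the way), and a second probe set lay below its range by 1 or more as well. Sfrp2 had 1863 against 4282, 7187 and 7393, and Wnt7a, which was higher on each later day, 78.4 against 216, 1301 and 4239. Fzd7 differed from the others: at 821 it was below ES cells (959 to 1131) as well as below Sox1 (+) cells (2233, 1717 and 2193), while the E-cad (+) fraction had 1781. Wls, the carrier that moves Wnt proteins to the cell surface, also lagged, and both of its probe sets lay below their ranges by 1 or more. The receptors Fzd1 and Fzd2 had reached their ranges.

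Of 20 Notch pathway genes, 8 (40.0%) were inside the range, 7 below and 5 above, beside 45.4%, 24.9% and 29.7% of all genes, and 2 lay below by 1 or more. These were Nrarp, a feedback inhibitor induced by Notch (494 at day 2 against 1340.5, 2079 and 1836, with 171 to 262 in ES cells, a difference of -1.77 ± 0.34 (SE)), and Lfng, a glycosyltransferase that tunes the receptor (316 against 887, 651 and 1147). The ligand Dll1 was inside its range, between the day 4 and day 5 values, at 919.9 against 438, 628 and 1448. The receptor Notch3 was inside at 1479 against 2085, 1865 and 1116. Hes6, which is expressed in cells committing to neurons, lay above at 1274 against 540.5, 721 and 1076.

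Promoters of 6 genes named here are shown because their windows hold a match to the octamer that Pou5f1 and the neural POU factors bind, or to the site of the Notch effector RBPJ. They are the 250 bases before the annotated start, from RefSeq on GRCm38.p6, 5′ to 3′ on the gene's strand, in lower case with matches in capitals. Matches were sought on both strands as ATGCAAAT (or ATTTGCAT) and as GTGGGAA (or TTCCCAC). The octamer matches are in 2 lost genes still above and 2 gained genes still below their Sox1 (+) ranges at day 2. The RBPJ matches are in Hes5 and Lfng.
Zfp42, chr8:43307010-43307259, minus strand: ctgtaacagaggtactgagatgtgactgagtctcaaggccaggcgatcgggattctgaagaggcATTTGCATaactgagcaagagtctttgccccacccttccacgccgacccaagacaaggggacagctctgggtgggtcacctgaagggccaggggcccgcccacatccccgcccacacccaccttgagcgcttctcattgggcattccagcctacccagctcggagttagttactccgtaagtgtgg
Chchd10, chr10:75932880-75933129, plus strand: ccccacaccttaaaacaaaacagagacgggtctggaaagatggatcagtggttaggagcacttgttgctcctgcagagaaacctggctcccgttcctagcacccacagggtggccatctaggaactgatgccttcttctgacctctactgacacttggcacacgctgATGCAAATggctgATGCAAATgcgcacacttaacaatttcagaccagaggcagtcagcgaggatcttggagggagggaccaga
Nrarp, chr2:25180508-25180757, plus strand: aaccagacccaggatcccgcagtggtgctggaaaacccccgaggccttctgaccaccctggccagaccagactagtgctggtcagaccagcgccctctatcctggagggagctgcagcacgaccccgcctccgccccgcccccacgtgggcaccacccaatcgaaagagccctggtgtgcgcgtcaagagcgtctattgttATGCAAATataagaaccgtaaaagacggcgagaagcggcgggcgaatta
Sfrp2, chr3:83766071-83766320, plus strand: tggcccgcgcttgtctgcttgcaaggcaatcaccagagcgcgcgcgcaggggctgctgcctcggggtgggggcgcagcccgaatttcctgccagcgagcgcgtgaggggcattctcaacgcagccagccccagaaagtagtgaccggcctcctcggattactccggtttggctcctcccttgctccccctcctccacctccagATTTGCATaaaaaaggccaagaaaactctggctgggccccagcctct
Hes5, chr4:154960673-154960922, plus strand: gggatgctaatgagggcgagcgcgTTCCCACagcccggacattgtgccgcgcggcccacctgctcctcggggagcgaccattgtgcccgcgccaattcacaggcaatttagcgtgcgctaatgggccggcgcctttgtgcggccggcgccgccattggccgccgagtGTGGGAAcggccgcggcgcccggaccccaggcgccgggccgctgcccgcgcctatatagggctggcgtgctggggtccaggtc
Lfng, chr5:140607091-140607340, plus strand: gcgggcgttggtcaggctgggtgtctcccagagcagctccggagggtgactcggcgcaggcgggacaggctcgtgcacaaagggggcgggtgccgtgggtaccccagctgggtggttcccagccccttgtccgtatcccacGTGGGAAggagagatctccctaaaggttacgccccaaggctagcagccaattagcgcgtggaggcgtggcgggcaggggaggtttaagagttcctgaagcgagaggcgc

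The shares of promoters with a match are given as a description, and their differences were not tested. Over the 32851 promoters of the RefSeq table, 1.60% held the octamer, against 1.39% of the promoters of gained genes that lagged, 2.01% of those of gained genes that had arrived, 1.75% for lost genes that lagged and 1.02% for lost genes that had arrived. The RBPJ sequence was in 5.42% of all promoters and in 3.65%, 6.71%, 4.21% and 4.78% of these groups in the same order. A match is only a run of letters in this window. Of the 564 lagging gained genes, 436 had a promoter in the table.

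The remaining signalling lists were those of the Hedgehog, BMP, retinoic acid and fibroblast growth factor pathways. Their counts stand beside 45.4% inside, 24.9% below and 29.7% above over all genes. Of 15 Hedgehog genes, 7 were inside the range, 8 below and none above, none by 1 or more, with a median difference of -0.44. The day 5 Sox1 (+) sample stood apart here. Shh had 154 at day 2 and 98.8, 75.1 and 708 on days 3, 4 and 5. In the same order Nkx2-2, a ventral progenitor gene, had 20.0 and 54.6, 64.1 and 1908. The Hedgehog receptor gene Ptch1 had 1894 and 2268, 2111 and 6312. The receptor subunits Smo (469 against 591, 619.6 and 962) and Boc (203 against 333, 582 and 533), both gained, were between ES and Sox1 (+) levels. Of 17 genes of BMP signalling and the Id family, 6 were inside, 7 below and 4 above, none by 1 or more, with a median difference of -0.34. The BMP antagonist Fst was at 548 against 1170.4, 1830.0 and 984 and Id2 at 2331 against 3029, 3818 and 4186. Of 18 retinoic acid genes, 6 were inside, 6 below and 6 above, with Crabp2 the farthest below (-1.61 on the log2 scale) and Stra8, a retinoic acid target of germ cells, the farthest above (1.18). Nrip1, a corepressor gene, was still at the ES level (1808 against 3281, 4543 and 3395, with 1511 to 1876 in ES cells), and the receptor Rarg differed from ES cells by -3.03 ± 0.35 (SE) on the log2 scale (adjusted p = 0.0172), with 94.3 at day 2 against 49.9, 68.1 and 29.5. Of 22 genes of fibroblast growth factor and ERK signalling, 7 were inside, 4 below and 11 above, with Fgf15 the farthest below (108 against 378, 261 and 485) and Spry4 the farthest above, both by 1 or more.

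**Figure D4:**
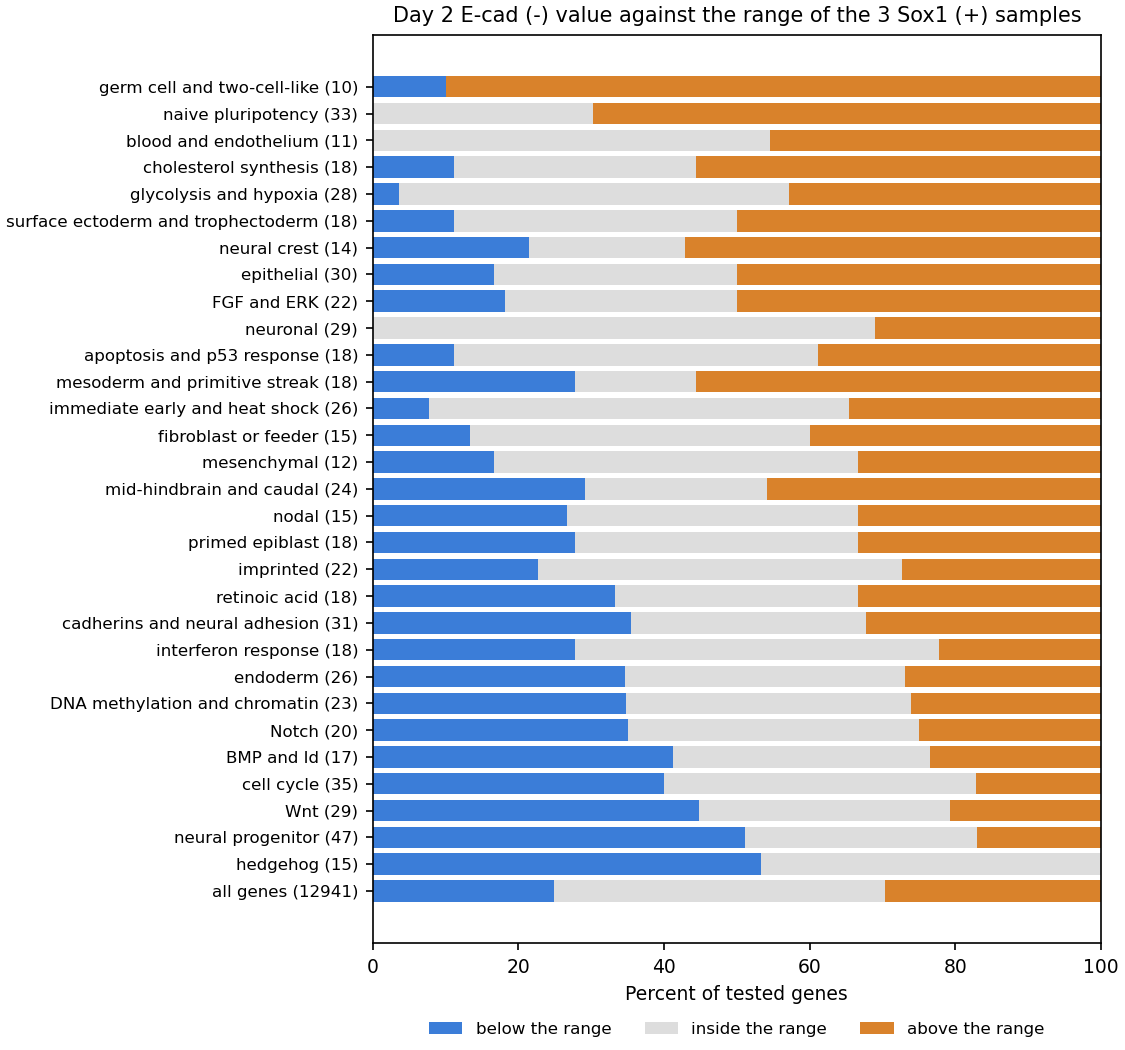
Percent of the tested genes of each list (number tested in parentheses) whose day 2 E-cad (-) value lay below (blue), inside (grey) or above (orange) the range of the 3 Sox1 (+) samples, for all genes (bottom) and for the 30 lists with at least 10 tested genes. Among all genes 24.9% lay below and 29.7% above; hedgehog and neural progenitor genes have the largest blue shares, and germ cell and pluripotency genes the largest orange shares.

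Because the range mixes 3 days, genes whose Sox1 (+) values were higher on each later day, or lower on each later day, were also ordered. Of 272 gained genes with ascending values, the day 2 E-cad (-) value came before the day 3 value for 196 (72.1%), lay between days 3 and 5 for 70 and was past day 5 for 6. Of 226 lost genes with descending values, the numbers were 152 (67.3%), 62 and 12. Over all 2676 genes with ascending values 31.8% came before day 3, and over all 2634 with descending values 35.8%. Where the trend ran back toward ES levels, the order was turned: of 100 gained genes with descending values, day 2 was past the day 5 value for 55, and of 112 lost genes with ascending values, for 60. The gained and lost genes were chosen on these same Sox1 (+) and ES values. A sample short of the Sox1 (+) level therefore tends to come before day 3, or past day 5 where the trend ran back. These shares thus largely restate the lag given above, and no other sample was ordered in this way. The nearest Sox1 (+) value was that of day 3 for 4881 genes (37.7%), day 4 for 4347 (33.6%) and day 5 for 3713 (28.7%).

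A last group of genes lay off the path from ES to Sox1 (+) cells. Of the 135 genes far below the range, 36 (26.7%) were also 1 or more below the ES values, and 22 were 1 or more below all 9 other samples. Of the 148 far above, 23 (15.5%) were 1 or more above both, and 8 were 1 or more above all 9 others. Sez6, which encodes a neuronal membrane protein, had 675 at day 2 E-cad (-) against 89.7, 77.4 and 111 in Sox1 (+) cells and 39.5 to 78.7 in ES cells, and a difference from ES cells of 3.13 ± 0.35 (SE) that passed limma (adjusted p = 0.0172). Slc1a2, a glutamate transporter gene, had 1909 against 507, 491 and 724 and 221 to 386 in ES cells, and the difference from ES cells was 2.72 ± 0.38 (SE) (adjusted p = 0.0365). On the low side, Mycn, a proto-oncogene of proliferating progenitors, was at 691 against 1670.2, 1469 and 2138 and 2097 to 2639 in ES cells. Gchfr had 803 against 13551, 15258 and 17541, and Brms1 503 against 2831, 2788 and 2597, but neither gene's other probe sets lay below their ranges by 1 or more. Ears2, a mitochondrial tRNA synthetase gene, was at 101 against 454, 561 and 434, with its other probe set inside its range.

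Probe sets of a gene did not always place it alike. Among the named genes lying outside the range by 1 or more, 20 had further tested probe sets. For 15 of them some other probe set lay on the same side, for 5 of these by 1 or more (Frzb, Sfrp1, Wls, Mocs3 and Dnmt3l), and for the other 5 (Crabp2, Utf1, Hoxb4, Ears2 and 1700129C05Rik) none did.

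Markers of other cells that the sort could hold differed between lists. For comparison, 45.4% of all genes lay inside the range, 24.9% below and 29.7% above. Of 26 endoderm genes, 10 lay inside the range, 9 below and 7 above, and Foxa2 was at 50.9 against 55.3, 51.5 and 1315, Sox17 at 83.5 and Gata6 at 64.2. The summed intensity of this list was 14331, within the Sox1 (+) range of 12734 to 15630. For mesoderm and primitive streak, 10 of 18 genes lay above the range. The list summed to 51425, against 6558 to 43679 in Sox1 (+) and 17787 to 24902 in ES samples. This sum was not particular to the E-cad (-) sort: it was 51679 at day 1, 56543 in the day 2 E-cad (+) and 44523 in the day 3 Sox1 (-) sample. Lefty1 alone, a Nodal target of pluripotent cells as well, contributed 42785 against 36270.1, 16847 and 1157. Hand2 was at 715 against 246, 273 and 152, higher than in any other sample, the next being day 1 at 410. Kdr was at 313 against 74.7, 78.6 and 196. It was close to that in the day 3 Sox1 (-) sample at 292, with 253 at day 1 and 227 in the E-cad (+) fraction. Of 15 fibroblast or feeder genes 2 lay below and 6 above, and of 11 blood and endothelial genes none lay below and 5 above. The blood and endothelial genes summed to 2001 at day 2 E-cad (-), the highest of the 10 samples, against 1323 to 1597 in Sox1 (+) and 1618 to 1806 in ES samples. The day 3 Sox1 (-) sample was close at 1969, with 1909 at day 1 and 1815 in the E-cad (+) fraction. No probe set named T, Mixl1 or Otx2 alone, and Fgf5, Mesp1 and Ptprc were too dim to be tested. The naive pluripotency genes summed to 60770 in the day 2 E-cad (-) sample, against 34353 to 47235 in Sox1 (+), 136228 to 167326 in ES and 114832 in E-cad (+) cells. Whether cells of other types contributed to the day 2 values was not tested.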

How the data were processed

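Sorted mouse cells were hybridised as biotin-labelled cRNA to U74Av2, U74Bv2 and U74Cv2 arrays, 1 array of each chip per sample. The authors deposited 1 linear intensity per probe set, and every array had a 2% trimmed mean near 500, so arrays share a common scale. How background was corrected is unstated, and the software too (not given in the sources used here). Of 36899 probe sets, 198 controls were left out, and 29131 named 1 gene, 724 several and 6846 none. Symbols came from the platform annotation and were updated through Entrez identifiers.

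Probe sets under the 30th percentile of mean intensity on their chip (78.6, 117 and 102) were dropped. A gene was given by its probe set with the highest mean log2 value. Tests used limma 3.58.1 in R 4.3.3 on log2(intensity + 16), fitted per chip to the day 2 E-cad (-), 3 Sox1 (+) and 3 ES samples, with Benjamini-Hochberg adjustment over the 3 chips together at 0.05. The fit was also run on simulated data drawn around the ES means with the ES spread. These data lacked the change over days, so they do not show how the fit behaves on the Sox1 (+) samples. The number of arrays limits the precision of the fit. Positions, distances and orders were counted with Python 3.11.15.

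Named genes were Sox1, Cdh1 and Pou5f1, the 12 farthest below and above the range whose highest of the 4 values was at or above the chip's median, the 8 largest gained and lost genes that had arrived or were in the ES range, and for each of 31 gene lists the members farthest outside by 1 or more and the 2 brightest inside. Other list members, and genes called against ES cells, were named for their roles after their values were seen. The comparison, lists and members were chosen with earlier results of these data known. Promoters matched 450 of 613 named or listed genes. Alternatives were the pseudocount, filter, normalization, probe sets, distance, samples in the fit and each sample left out.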

Additional observations from a re-analysis of the deposited data

How the results depend on the processing

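No probe set passed limma's adjusted p of 0.05 under any alternative run (0 in each, with 1027 to 2553 probe sets at an unadjusted p under 0.05). No paired analysis was possible because the groups compared share fewer than 2 replicate numbers. The counts of genes 1 or more outside the Sox1 (+) range depended on the settings. Below the range, 135 genes became 77 with a pseudocount of 64, 71 with the filter at the 60th percentile, 534 at a distance of 0.5 and 8 at a distance of 2. Above it, 148 became 90, 69, 689 and 10 in the same order, and 243 with no filter. A range of 2 samples is narrower, and leaving out each Sox1 (+) sample in turn gave 190 to 261 genes below, 236 to 301 above and 3648 to 4267 inside. The median of the way was 63.1% to 73.7% for gained and 62.7% to 69.6% for lost genes when any sample was left out, the lowest without day 3. The share that had arrived was 15.9% to 29.9% of gained and 16.6% to 29.5% of lost genes. It was 27.6% of lost genes with no filter and 39.9% with the filter at the 60th percentile. Among genes differing by 2 or more between Sox1 (+) and ES cells it was 25.8% of gained and 16.7% of lost genes, whose median was 64.1%. Without the third ES and the day 5 samples together, chosen after seeing the data for their actin ratios, it was 22.2% and 12.3%, and the gained median was 77.3%. The cause of these changes was not tested. The remaining 113 summary values moved by at most 1.5 times for counts, or by less than 5 percentage points for medians and shares. No named gene changed side of the range, and 17 of 52 named genes fell under a distance of 1 in some setting, among them Hoxb4, Tbx3, Ptprz1, Gchfr and Brms1 with only the plain probe sets, an alternative also chosen after seeing the data.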

Other observations

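Of 22 imprinted genes tested, 11 were inside the Sox1 (+) range, 5 below and 6 above, beside 45.4%, 24.9% and 29.7% of all genes. The 8 that were gained compare with 6.4% gained over all genes. Of these, 4 had reached the range and 4 were between it and the ES values, with a median of 79.6% of the way, beside 31.9% arrived and a median of 69.7% over all gained genes. The 2 lost members, Phlda2 and Slc38a4, both lay in their ranges. Mest, a paternally expressed gene, had 5331 at day 2 E-cad (-) against 6571, 4508 and 3386 in Sox1 (+) cells and 766 to 1088 in ES cells (log2 difference from ES cells 2.48 ± 0.38 (SE), limma adjusted p = 0.047). Ndn had 1565 against 2110.1, 2843 and 2426 and 267 to 402 in ES cells (adjusted p = 0.0333), and Magel2 260.0 against 356, 323 and 375 and 47.7 to 78.3 in ES cells (adjusted p = 0.0465).

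Of 31 cadherin and neural adhesion genes, 10 were inside, 11 below and 10 above, and the 12 gained members had a median of 85.5% of the way, with 6 having arrived, 5 between and 1 in the ES range. Over all gained genes the median was 69.7% and 31.9% had arrived. Cdh10 had 697 against 585, 568 and 573, beyond its range, Efnb2, an ephrin ligand, 1884 against 1965, 2092 and 1644, inside it, and Ephb1, an Eph receptor, 1209 against 2009, 2124 and 2815, close to its ES values of 992 to 1142. Of 30 epithelial genes, 10 were inside, 5 below and 15 above, and of the 10 lost members 3 had reached the range. Over all genes 45.4% were inside, 24.9% below and 29.7% above, and 34.1% of lost genes had arrived. In glycolysis and hypoxia, 15 of 28 genes were inside, 1 below and 12 above. Pdk1, a kinase that restrains pyruvate oxidation, had 1272 against 636, 839 and 468 and 1959 to 2279.7 in ES cells.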
